A study of Mus musculus with 2 samples.

Results

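Axon guidance ligands and receptors were compared between samples labelled as neurons of the dorsal root ganglia (DRG), from Dock8+/- and Dock8-/- mice. Markers of other cell types were also read in these samples, as given below. The members were all genes whose symbol on the array was that of a semaphorin of classes 3 to 7, a plexin, a neuropilin, an ephrin or Eph receptor, a Slit or Robo, a netrin or netrin-G, or the netrin receptors Dcc and Unc5. This gave 71 of the 37074 gene names on the array, read by 177 of its 56605 probes. For each gene the brightest probe free of short sequence repeats was used, where a repeat is a run of at least 4 copies of a motif of 2 or 3 bases. Such a probe existed for 69 members, and the other 2, Ephb3 and Unc5a, had repeat probes only.

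The study hybridised 1 array for Dock8+/- and 1 array for Dock8-/-, both from C57BL/6 mice that carried the AND T cell receptor transgene, and compared transcript levels between the genotypes. DOCK8 activates the small GTPase CDC42, chiefly in leukocytes, and the sample descriptions attach a low level of the itch cytokine IL-31 to the Dock8+/- sample and a high level to the Dock8-/- sample. The sources used here give neither the number of mice behind each array nor their age. With 1 array a genotype there is no replicate, so no difference below has a test, and sample and genotype cannot be told apart.

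Guidance ligands steer growing axons by attraction or repulsion. Class 3 semaphorins act through neuropilins and plexins, the other semaphorins mostly bind plexins directly, Slits act on Robo receptors, netrins on DCC and UNC5, and ephrins on Eph receptors. In the sensory ganglion these systems shape the path and branching of sensory axons, and many are also used by endothelial cells, glia and fibroblasts.

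The array reads each gene with 60-base probes, and the results turn on a few of them, of which 30 bases are printed here, from the 5′ end, so that probes of a gene can be told apart. Coordinates were taken from the files and refer to mm9. Where a probe lies relative to exons and UTRs was not looked up, since annotation of mm9 was not used here. The netrin-1 probe lies at chr11:68022986-68023045 on the minus strand (NM_008744) and that of Slit2 at chr5:48696502-48696561 on the plus strand (NM_178804). The 2 Ephb2 probes, both on the minus strand, lie at chr4:136209527-136209586 (A) and chr4:136211203-136211262 (B). Those of Sema4d lie at chr13:51780903-51780962 (A) and chr13:51796617-51796676 (B), also on the minus strand. The Robo2 probe lies at chr16:73894653-73894712 and the Efna3 probe at chr3:89118981-89119040, both on the minus strand.
Ntn1: atgaatatatttaatgacatggagaaagtt
Slit2: cctccttcaggacacttgcagaaggtttgc
Ephb2 A: cagggaatccgagcagaacaatcggttagt
Ephb2 B: accagatccagtctgtagaggtttgacatt
Sema4d A: tgccaaacaggccaattatgcaaaccttca
Sema4d B: tttctacttggaactgtacacatttgaaaa
Robo2: caaatctgtttgacccattttgaatgagta
Efna3: aagaggcaaatatgccccagagagaacaaa

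A repeat probe was the brightest of Dcc, Nrp2, Sema4c and Sema5a and the only one of Ephb3 and Unc5a. The Nrp2 probe at chr1:62843061-62843120 holds 14 GT units and the Sema4c probe at chr1:36605998-36606057 holds 11 TG units. They are set here beside the repeat-free probes that were used instead, Nrp2 at chr1:62865129-62865188 on the plus strand and Sema4c at chr1:36606063-36606122 on the minus strand. Capitals mark the repeat. The lines show 30 bases of each probe, from base 19 for the Nrp2 repeat probe and from base 1 for the others.
Nrp2 repeat: gtgaagagGTGTGTGTGTGTGTGTGTGTGT
Nrp2 used: tgagccagatcacgggaactcgagagcttt
Sema4c repeat: aaTGTGTGTGTGTGTGTGTGTGTGttgtaa
Sema4c used: tgcaaggaagaggtttcaagatgtgggcgt

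Signals were compared after scaling each array to the 75th percentile of its processed intensity, which was 303.8 for Dock8+/- and 145.6 for Dock8-/-. A log2 difference is Dock8-/- minus Dock8+/- on this scale, and a probe well above background by the scanner's flag is called detected. A gene counted as measured when its probe was detected on both arrays. The share of member probes detected was 70.6% for Dock8+/- and 61.0% for Dock8-/-, against 56.9% and 50.7% of all probes. Spots of a probe printed 10 times differed little, with an SD of 0.0637 expected for a log2 difference of single spots. Probes of one gene differed far more. For the 24 members with at least 2 measured probes, the root mean square SD between probes was 0.69. Over all 5994 genes with at least 2 such probes it was 0.59. Of 5 Dock8 probes, 1 was detected, on the Dock8+/- array only (intensity 20.5, against 6.87 on the other). It checks nothing, because the sources do not say which part of the gene the allele lacks.

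The spread of guidance genes between the samples lay close to that of all genes. Of the 61 measured members, 6 (9.84%) were 2-fold or more higher in the sample from Dock8-/- mice, where 8.56% of all 18211 measured genes were, and 5 (8.20%) were 2-fold or more lower, where 7.18% of all genes were. Together 11 members and 15.7% of all genes were that far apart. The median log2 difference was -0.15 over the members and 0.02 over all measured genes. The quartiles, -0.61 and 0.46, also lay near those of all genes, -0.40 and 0.47. In all 34 members were lower and 27 higher, 55.7% and 44.3%, against 48.8% and 51.2% of all measured genes.

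Ligands had a median of -0.26 over 34 measured genes and receptors -0.08 over 27, but both lay near 0 under normexp background correction (-0.09 and 0.03) and with the mean of probes (-0.01 and 0.003). With repeat probes kept they were -0.18 and 0.16. Of the remaining members, 4 (Robo3, Ntng2, Dcc and Unc5d) were detected on neither array. Epha1, Efna4 and Ntn3 were read on the Dock8+/- array only. The brightest Epha7 probe was also read on that array only, at 48.5 against 19.7, whereas a second probe, read on both at 30.8 and 22.3, gave 0.60.

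**Figure D1:**
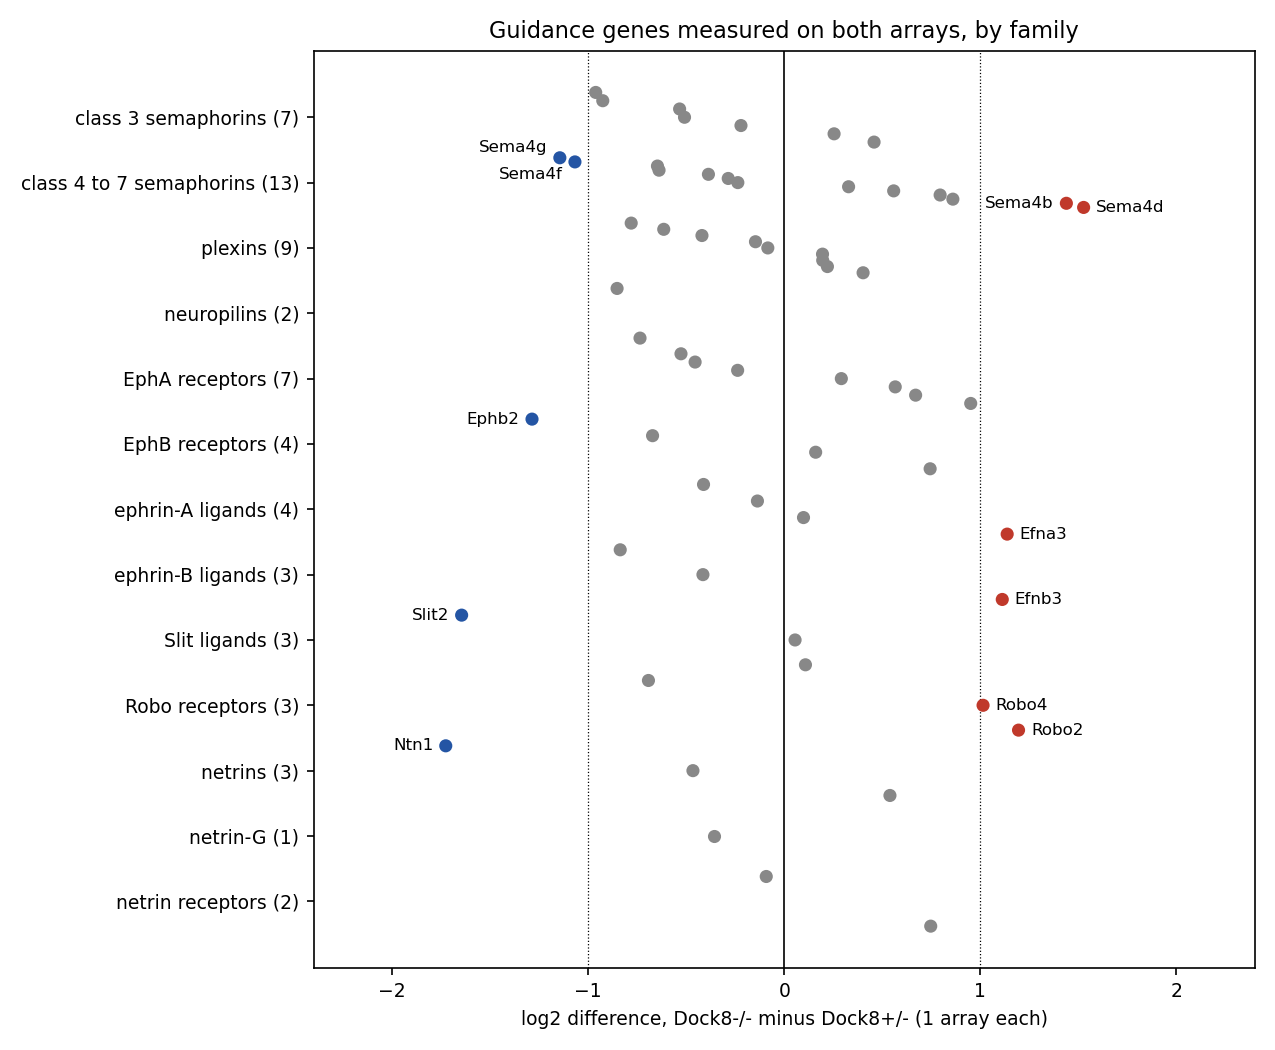
Log2 differences of the 61 measured guidance genes by family, with the number measured in brackets, 1 point a gene and dotted lines at 2-fold. Netrin-1, Slit2, Ephb2, Sema4g and Sema4f lie beyond the lower line and Robo4, Efnb3, Efna3, Robo2, Sema4b and Sema4d beyond the upper line, while the other 50 genes lie between them.

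Markers of other cell types differed between the samples beside these genes. The label of the tissue is DRG neurons, and all 20 sensory neuron markers were measured, with a median of 0.00 and summed signals of 1779 for Dock8+/- and 1697 for Dock8-/-, in units of the 75th percentile. Of 16 fibroblast and connective tissue markers 15 were measured, and 12 were 2-fold or more lower in the Dock8-/- sample (median -2.11, sums of 1567 and 531.0). Of 13 macrophage markers, all measured, 10 were that much lower (median -1.52, sums of 161.3 and 44.8). Of 12 skeletal muscle markers 7 were measured, of which 6 were that much lower (median -3.68, sums of 42.2 and 2.84), and another 4 were read on the Dock8+/- array only.

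The medians of satellite glia and of spinal cord and central glia markers were above 0, with members on both sides. Of 13 satellite glia markers, all measured, 5 were 2-fold or more higher and 1, Fabp7, lower (median 0.81, sums of 565.4 and 782.6). Of 14 spinal cord and central glia markers 12 were measured, 6 of them 2-fold or more higher and 1 lower (median 0.97, sums of 38.8 and 84.9), and Mnx1 was detected on neither array. Mnx1 and Chat are both motor neuron genes, and Chat had intensities of 185.2 and 213.5 and a difference of 1.27, and the inhibitory neuron genes Slc6a5 and Slc32a1 differed by -1.20 and -0.44. Schwann cell markers had a median of 0.20 over 12 of 13 genes, with 1 higher and 2 lower by that size (sums of 670.4 and 594.9). Endothelial and mural markers had a median of -0.29 over 14 of 15 genes, with 1 higher and 1 lower (sums of 72.2 and 62.8). The part of any of these cell types in the values of the guidance genes was not tested, and in bulk samples fewer cells of a type and less RNA per cell cannot be told apart.

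Netrin-1 and Slit2 were the lowest members. Netrin-1, encoded by Ntn1, is the secreted ligand of DCC and UNC5 receptors. Its processed intensity was 608.8 for Dock8+/- and 88.1 for Dock8-/-, a scaled log2 difference of -1.73, or 3.31-fold lower. Its value rests on a single probe. Slit2, a secreted repellent that also promotes branching of sensory axons, had intensities of 559.2 and 85.6, a difference of -1.65, or 3.13-fold lower. Its only other measured probe, at intensities of 42.0 and 22.9, gave 0.18, and the remaining 5 Slit2 probes were detected on neither array. The measured paralogues of both genes, Slit1, Slit3, Ntn4 and Ntn5, lay closer to 0. Slit1 differed by 0.05 and Slit3 by 0.11, and of the netrins Ntn4 differed by 0.54 and Ntn5 by -0.47. Ntn4 was dim, at 43.5 and 30.3. It lay in the dimmest of 10 groups by mean signal, where the median of all measured genes was 0.57. Ntn3 was at least 1.70-fold lower, with an intensity of 57.2 on the Dock8+/- array and 14.9, not detected, on the other. That bound takes the dim signal as the larger of its own value and the dimmest signal still well above background on the same array. Of the 3 members read on the Dock8+/- array only, 0 were 2-fold or more lower by such a bound, compared with 17.6% of all genes read in that way. For Efna4 (23.5 and 4.74) and Epha1 (26.4 and 14.0) it gave no fold. Netrin-G1, encoded by Ntng1, is a membrane-anchored relative that does not bind DCC, and with intensities of 2270 and 847.5 it differed by -0.36.

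The Robo receptors differed among themselves. Robo2, a receptor of Slits on sensory axons, had intensities of 567.8 for Dock8+/- and 622.8 for Dock8-/-, and was thus brighter in the Dock8-/- sample even before scaling. Its difference was 1.19, or 2.29-fold higher, and its 2 other measured probes gave 0.58 and 1.57. Robo1, the other main Slit receptor, had intensities of 706.0 and 209.2 and a difference of -0.69, and its second measured probe gave -0.95. Robo4, the Robo of endothelial cells, had nearly equal intensities of 567.9 and 549.3, which gave a scaled difference of 1.01, just above the 2-fold threshold. Robo3, a receptor of commissural neurons, was detected on neither array.

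The netrin receptors were read poorly. Dcc encodes the attractive netrin receptor. Its 5 repeat-free probes were detected on neither array, and the brightest had intensities of 13.8 and 12.1. The sixth Dcc probe is a run of 17 GAA units that the files place on chromosome 7, whereas they place the other 5 on chromosome 18. It had intensities of 29020 and 56407, a scaled difference of 2.02. Across the array, the 35 probes with a GAA repeat that were measured on both arrays had a median difference of 2.13, and 88.6% of them were 2-fold or more higher in the Dock8-/- sample, against 11.3% of the 26864 probes with no repeat. Unc5b differed by -0.09 and Unc5c by 0.75, and Unc5d was detected on neither array. Unc5a was read by a TA-repeat probe only, with intensities of 627.6 and 217.3 and a difference of -0.47.

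Of the 7 secreted class 3 semaphorins, all measured, 5 were lower and 2 higher, 0 of them by 2-fold, with a median of -0.51, which was -0.23 under normexp. Sema3d had intensities of 856.1 and 210.5, a difference of -0.96, and Sema3c 753.1 and 189.8, a difference of -0.93. Among measured members that did not reach 2-fold, Sema3d and Sema3c came closest to it on the lower side. Sema3b, another secreted ligand of neuropilins, had 7110 and 2394, a difference of -0.51. Sema3e, which binds plexin D1 directly, differed by -0.53, and Sema3a, the classical repellent of sensory axons, had low intensities of 53.7 and 22.1 and a difference of -0.22. Sema3f, with 1203 and 687.4, and Sema3g went the other way, with 0.25 and 0.46.

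Both neuropilins, the ligand-binding co-receptors of class 3 semaphorins, were lower on their brightest repeat-free probe. Nrp1, which binds Sema3A, had intensities of 2801.6 and 805.7, a difference of -0.74. A second probe near it gave -0.97, at intensities of 773.9 and 189.1. The other 3 measured Nrp1 probes, with intensities between 35.4 and 67.6, gave 0.41 to 0.96. Nrp2, which binds Sema3F, had intensities of 1830.1 and 485.5, a difference of -0.85. The GT-repeat probe of Nrp2, with 4589 and 2470, gave 0.17, and another probe was read on the Dock8+/- array only, at 89.8 against 9.06. For Nrp2 only the repeat probe was higher, and TG or GT repeat probes over the whole array had a median of 0.17. The mean over the 5 measured Nrp1 probes was 0.04. The 3 higher ones lay below 106.4, the brightest negative control spot, on the Dock8+/- array. On the Dock8-/- array they lay above that spot, which was at 28.2 there.

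Plexins, the signalling receptors of semaphorins, were within 2-fold. All 9 were measured, 4 higher and 5 lower, with a median of -0.08. Plxna3 had the largest difference, -0.78, with intensities of 260.1 and 72.5, and Plxna4, which with Plxna3 carries Sema3A signals in sensory neurons, differed by -0.08. Plxnb2, a receptor of class 4 semaphorins, had 2487 and 778.1, a difference of -0.61. Plxnd1, with intensities of 4054 and 2567, differed by 0.40 on its brightest probe and by -0.50 on the other.

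**Figure D2:**
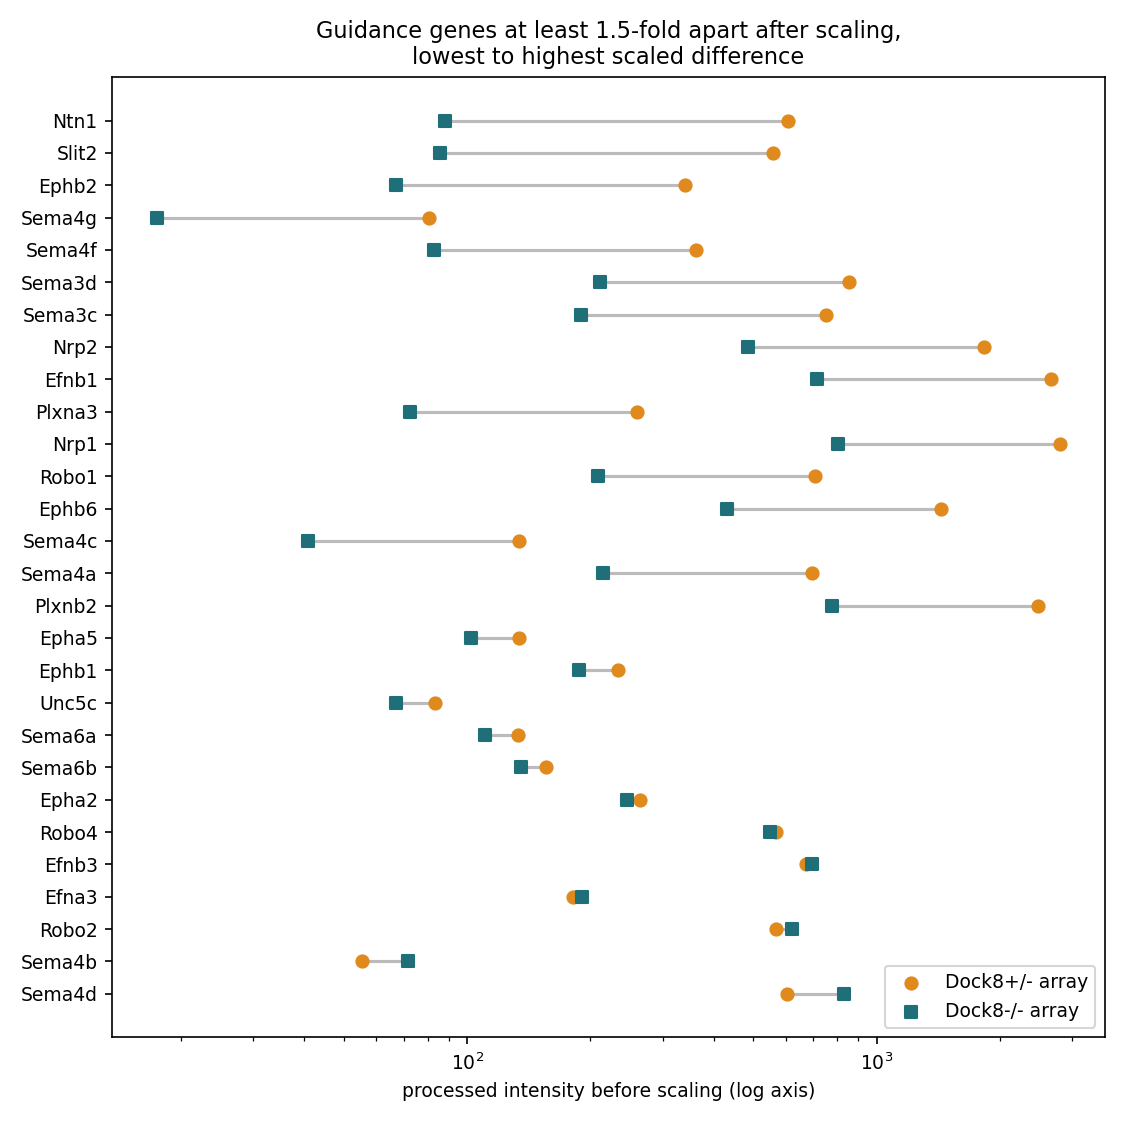
Processed intensity before scaling, on a log axis, of the members at least 1.5-fold apart after scaling, ordered by scaled difference, with a circle for the Dock8+/- array and a square for the Dock8-/- array. Sema4d, Sema4b, Robo2, Efna3 and Efnb3 were brighter on the Dock8-/- array before scaling, and all others in the plot were dimmer there.

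Membrane-bound semaphorins held both the highest member and lower ones. Of these 13 genes, all measured, 2 were 2-fold or more higher and 2 lower by that size. Their median was -0.24, but 0.33 with repeat probes kept and 0.26 with the mean of probes. Sema4d, a ligand of plexin B1, had intensities of 603.6 and 833.6 on probe A, a difference of 1.53, or 2.88-fold higher. Probe B of Sema4d gave 0.34, with 331.7 and 200.9. Sema4b, read by 1 probe at low intensities of 55.2 and 71.7, differed by 1.44, or 2.71-fold higher. The brightest negative control spots were at 106.4 for Dock8+/- and 28.2 for Dock8-/-, so the first Sema4b value lies below that level, as do both Sema4g values given next.

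Sema4f and Sema4g lay on the other side. Sema4f had intensities of 363.0 and 83.0, a difference of -1.07, or 2.10-fold lower. Its other probe was detected on neither array. Sema4g had 80.8 and 17.5, the latter close to 16.1, the lowest intensity well above background on that array, and differed by -1.15, which became -0.09 under normexp background correction. A second Sema4g probe was detected for Dock8-/- only, at 21.4 against 14.9, with the opposite sign (1.58). Sema6a and Sema6b, ligands of class A plexins, differed by 0.79 and 0.86. Sema7a, a membrane-anchored ligand of plexin C1, had 2613 and 1062, a difference of -0.24. Its receptor gene Plxnc1 differed by 0.22 on the brightest probe and 1.11 on the other.

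EphB2 was the lowest Eph receptor, on 1 of its 2 probes. Ephb2, which encodes a receptor for ephrin-B ligands, had intensities of 340.7 and 66.9 on probe A, a difference of -1.29, or 2.44-fold lower. Its probe B, with intensities of 124.0 and 89.7, gave 0.60. Among the other EphB receptors, Ephb6 differed by -0.67, Ephb4 by 0.16 and Ephb1 by 0.74. Ephb3 was read by a TG-repeat probe only, at 4780 and 2589, a difference of 0.18. Over the 7 measured EphA receptors the median was 0.29, but -0.12 under loess scaling, and 0 were at least 2-fold apart. Epha3 differed by -0.46 on the probe used (57.2 and 20.0), and by -1.02 under loess. Its other probes with signal were detected on the Dock8+/- array only, at 68.7 against 4.04 and at 47.0 against 9.79. Epha2 came closest, at 0.95 with intensities of 264.8 and 245.2. Epha4, which binds ephrins of both classes, had 290.1 and 96.4, a difference of -0.53. The 4 measured Epha5 probes all gave a higher value, from 0.47 to 1.21, at intensities no higher than 134.0.

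Ephrins were higher or lower by gene. Efnb3, a transmembrane ephrin, had intensities of 673.0 and 696.7, a difference of 1.11, or 2.16-fold higher. Efna3, a membrane-anchored ephrin, had 181.2 and 191.0, a difference of 1.14, or 2.20-fold higher. A second Efna3 probe was detected for Dock8+/- only, at 46.7, with the opposite sign (-0.90). Efnb1 had 2664 and 714.7, a difference of -0.84, and Efnb2 and Efna5 differed by -0.41 each. Efna1, with 1406 and 720.6, differed by 0.10 and Efna2 by -0.14.

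Probes of a member could disagree widely. In 12 of the 24 members with at least 2 measured repeat-free probes, these lay over 1 log2 unit apart. The widest range was that of Nrp1, 1.94. The share of all genes with such a range is not given here, but probes of other genes also disagreed. The root mean square SD between probes was 0.59 over all genes and 0.69 over the members. In Sema4c the probe used had 133.7 and 40.9 and gave -0.65, while the other repeat-free probe, with 42.7 and 45.8, gave 1.16. Sema5a, a transmembrane semaphorin with attractive and repulsive actions, gave -0.39 on its brightest repeat-free probe (1217 and 445.9) and 0.39 and 0.75 on probes no brighter than 36.4. In Efna5, 2 probes gave -0.41 (1103 and 397.2) and -0.49, and another with 28.1 and 21.2 gave 0.65. These members were lower on the probe used and higher on at least 1 other. Each of those higher repeat-free probes lay below 106.4, the brightest negative control spot, on the Dock8+/- array. On the Dock8-/- array that spot was at 28.2. The Sema4c probe lay above it, the Efna5 probe below, and Sema5a had probes on both sides. The dimmest group of all measured genes also lay higher, with a median of 0.57, and its part in these differences was not tested. Some probes that gave lower values lay below the brightest control spot of both arrays, such as those used for Epha3 (57.2 and 20.0) and Sema3a (53.7 and 22.1).

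The probes of other members spread in other ways. Epha6 gave 0.29 (84.5 and 49.5) and, on a dimmer probe with 22.2 and 32.7, 1.62. Plxnb3 gave 0.20 (406.4 and 222.8) and, on a dimmer probe with 33.9 on the Dock8-/- array, 1.33. Ephb4, a receptor also used by venous endothelium, gave 0.16 on the probe used (427.4 and 228.8), and 0.54 (132.1 and 92.0) and -0.66 (94.1 and 28.4) on the others. Sema5b gave 0.56 on the probe used (121.7 and 85.8), and -0.07 and 1.07 on the others. In Sema6d 5 probes gave 0.06 to 1.43, the highest with 53.7 and 69.4. Of the 11 members 2-fold or more apart, Ntn1, Sema4b, Robo4 and Efnb3 had a single probe on the array. Sema4f, Sema4g and Efna3 had further probes, but only 1 each that was detected on both arrays.

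**Figure D3:**
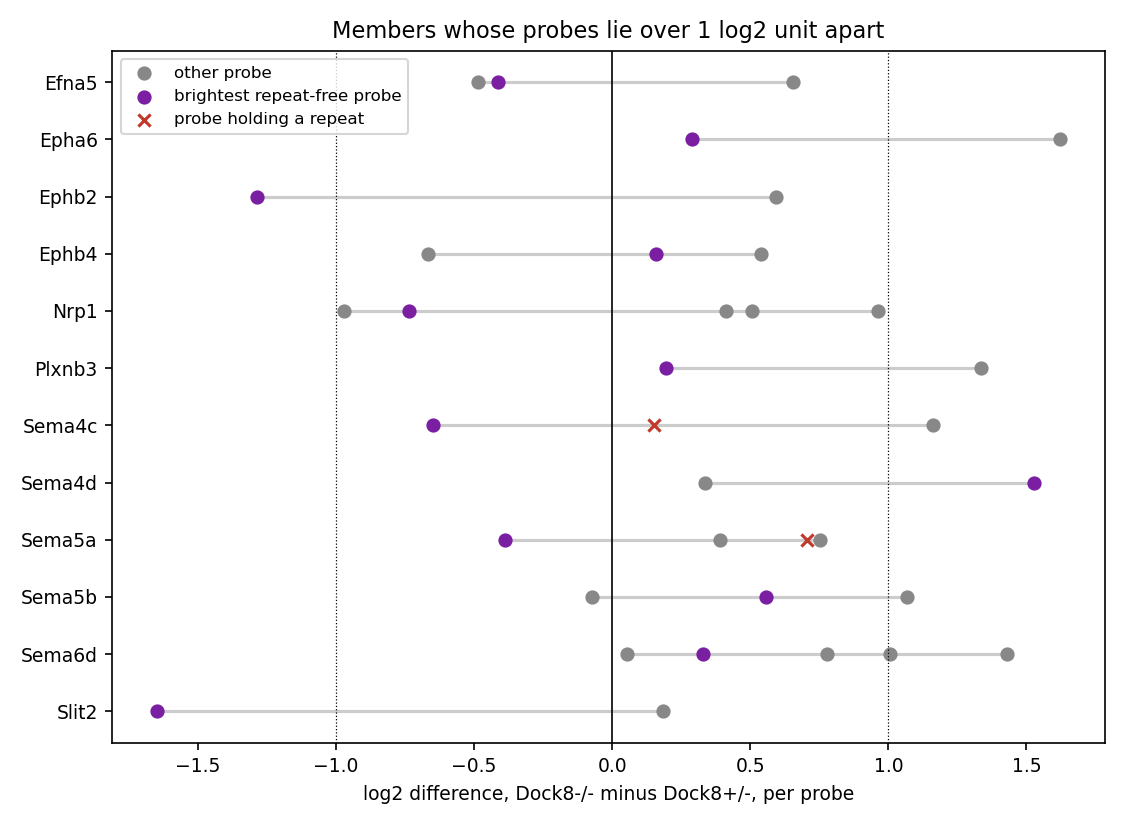
Log2 difference of each probe well above background on both arrays, for the 12 members whose repeat-free probes lie over 1 log2 unit apart. Filled purple points are the brightest repeat-free probe, grey points the other probes and red crosses probes with a repeat. In Slit2, Ephb2, Nrp1, Sema4c, Efna5 and Sema5a the brightest repeat-free probe is lower in the Dock8-/- sample and at least 1 other probe is higher. Except in Ephb2, these higher repeat-free probes lay below the brightest negative control spot (106.4) on the Dock8+/- array. On the Dock8-/- array, where that spot was at 28.2, those of Nrp1 and Sema4c lay above it. Those of Slit2 and Efna5 lay below it, and Sema5a had probes on both sides.

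Dim genes lay higher as a whole. Over all measured genes the median difference was 0.57 in the dimmest of 10 groups of equal size by mean signal, 0.15 and 0.10 in the next groups, and between -0.06 and -0.04 in the others. Of the members at least 2-fold apart, Sema4g lay in the dimmest group and Sema4b in the next, and the others lay in groups with medians of -0.04.

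**Figure D4:**
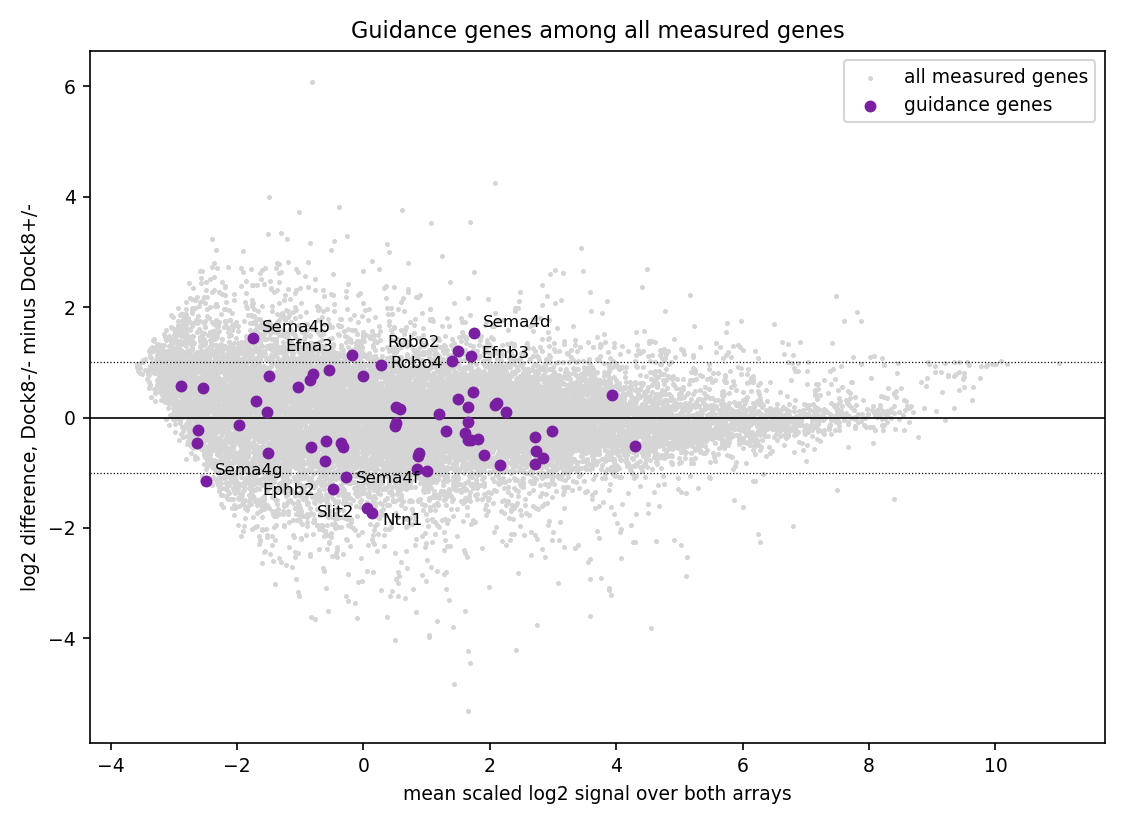
Log2 difference against mean scaled log2 signal for all 18211 measured genes (grey) and the 61 measured guidance genes (purple), with dotted lines at 2-fold. The guidance genes lie within the cloud of all genes, from -1.73 for Ntn1 to 1.53 for Sema4d.

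A list of 30 further guidance ligands, receptors and adhesion proteins had 29 measured genes, of which 3 were 2-fold or more higher and 4 lower by that size, where 8.56% and 7.18% of all measured genes were. Of these genes 19 were higher and 10 lower, with a median of 0.29. Dscaml1, an adhesion receptor, was 4.03-fold higher, with low intensities of 44.3 and 85.5. The teneurins Tenm1 and Tenm2, adhesion proteins of growing axons, differed by 1.27 and -1.57. Boc, a co-receptor of hedgehog proteins, was 2.47-fold lower. Of 49 proteins that signal below guidance receptors 47 were measured, with a median of 0.03, and 0 were 2-fold or more higher and 2 lower, against the same 8.56% and 7.18%. Gipc1, whose product binds the tail of neuropilin-1, had intensities of 695.4 and 111.1, a difference of -1.58. Srgap2, a GTPase-activating protein of the Slit-Robo pathway, was 2.27-fold lower.

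The scale set the sign of many differences. Before scaling, 5 of the 61 members (8.20%) and 7.35% of all measured genes were brighter on the Dock8-/- array. On the scale of the spike-in transcripts the median of all genes moved from 0.02 to -1.86, and each of the 6 higher members then lay below 0. Under normexp background correction 1 member, Sema4d, remained at least 2-fold higher and 2, Ntn1 and Slit2, at least 2-fold lower. Of all measured genes 3.37% were that much higher under normexp and 4.73% that much lower.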

How the data were processed

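Total RNA was labelled with Cy3 after low-input amplification, per the labels' protocols. The deposited scanner files hold spot intensity, which the authors read out with Feature Extraction by Agilent (10.7.1.1 per the file headers, 9.5.1.1 per the submitters' processing notes), background-subtracted and detrended, with surrogate values for dim spots. The authors' value table holds intensity that was found to be quantile normalised: 98.9% of sorted values were equal in both columns (tolerance 0), each median was 27.9, its log2 values correlated at 0.999 or above with the scanner values across probes, and its scale and direction are those of intensity. No centring was seen. The number of value columns left unused was 0.

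Processed intensity was put on the log2 scale and spots of the same probe were averaged, without non-uniform spots (3 and 1), and each array's 75th percentile over non-control probes was subtracted. No member spot was saturated (0). Of 121 member probes with a RefSeq transcript, 118 were found in the RefSeq table of GRCm38.p6, used for names only, and all 118 had the same symbol. Members at least 2-fold apart, by a bound too, the brightest members, those with discordant or repeat probes and up to 4 genes of each other guidance list were to be named in full, and other members by family. Members and lists were chosen with earlier results of these data known. Alternatives were other scalings, normexp (limma 3.58.1, offset 50), loess (span 0.3), the value table, other probe rules, filters and thresholds. Functions were tested on simulated data. With 1 array a group there is no p-value, and the number of arrays limits the precision.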

Additional observations from a re-analysis of the deposited data

Results flagged for a closer look

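Probes that hold a repeat were left out of the comparison, yet 7 of the 10 among the members were well above background on both arrays and brighter than every negative control spot (at most 106.4 for Dock8+/- and 28.2 for Dock8-/-). Their log2 differences were 2.02 for Dcc, 0.18 for Ephb3, 0.17 for Nrp2, 0.15 for Sema4c, 0.71 for Sema5a, -0.47 for Unc5a and -0.70 for Ephb1. The values of Ephb3, Nrp2 and Sema4c, all from probes of TG or GT units, were close to each other, and the 235 TG-repeat probes measured on the array had a median of 0.17. The Sema5a probe holds 4 GGT units and its brightest repeat-free probe gave -0.39. The Ephb1 probe holds a CT repeat, a class with a median of -0.20 over 118 probes, and the repeat-free Ephb1 probe gave 0.74.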

How the results depend on the processing

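No paired analysis was possible because either genotype has a single array and nothing was tested. For the same reason no replicate could be left out. The cause of the shifts below was not tested, apart from thresholds and filters, which act by construction. Against 6 members higher, 5 lower and a median of -0.15, spike-in scaling gave 0, 54 and -2.02. Of all measured genes 0.121% were higher and 88.6% lower there, with a median of -1.86. On that scale Sema4d lay at -0.35, Sema4b at -0.44, Robo2 at -0.68, Efna3 at -0.74, Efnb3 at -0.76 and Robo4 at -0.86. Normexp gave 1 higher and 2 lower, where 3.37% and 4.73% of all measured genes were. The mean of probes gave 5 and 3, where 8.70% and 6.93% of all measured genes were, and a member median of 0.003. A threshold of 1.5-fold gave 12 and 16 of the 61 measured members, against 3724 and 3135 of all 18211 measured genes. At 3-fold the counts were 0 and 2, against 403 and 418. The median was -0.015 with repeat probes kept and -0.22 with a probe well above background on at least 1 array. By a bound, 0 members were 2-fold lower, against 17.6% of all genes read on the Dock8+/- array only. The count was 1 under loess, 3 under spike-in scaling and 1 at 1.5-fold, for which shares of all genes are not given here. Quantile normalisation, loess, the value table and other percentiles kept all 6 higher and 5 lower members, with Epha3 added to the lower ones by loess, as did leaving out only purine repeats, an alternative chosen after seeing the data. Over all genes, 1558 were higher and 1307 lower, against 22 and 16128 under spike-in scaling and 614 and 860 under normexp. With no filter on dim probes the counts were 5243 and 2750, and by the positive-and-significant flag 3241 and 2061. With a probe well above background on at least 1 array 2569 were lower. Of all genes called, 54.4% were higher, a share that loess scaling moved to 41.1%, normexp to 41.7%, spike-in scaling to 0.136% and no filter to 65.6%. Dim probes limit the reading of Dcc, Unc5d, Robo3 and Ntng2.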

Other observations

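Several members lie close together in the genome (mm9), and neighbours shared a direction in some pairs and differed in others. The pairs given here are examples, and the share of either kind is not given. Efna1, Efna3 and Efna4 lie within 62.4 kb on chromosome 3. Efna1 differed by 0.10 and Efna3 by 1.14, and Efna4 was read on the Dock8+/- array only, at 23.5. Robo1 and Robo2 lie 848.4 kb apart on chromosome 16 and differed by -0.69 and 1.19. Ntn1 and Efnb3, among the lowest and the highest members, lie 1344.9 kb apart on chromosome 11. On chromosome 5, Sema3d, Sema3a, Sema3e and Sema3c all lay below 0, at -0.96, -0.22, -0.53 and -0.93, with the outer pair 4647 kb apart. Sema3b and Sema3f, 83.1 kb apart on chromosome 9, differed by -0.51 and 0.25. Plxna3 and Plxnb3, 572.3 kb apart on chromosome X, differed by -0.78 and 0.19.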
